A study of Rattus norvegicus with 4 samples.

Results

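The immunoproteasome genes, the genes of their constitutive counterparts and the genes of the PA28 activator were examined in RSC96, a rat cell line labelled as Schwann cells, which are the glia that wrap the axons of nerves outside the brain and spinal cord. The set held 9 genes of the 17778 rows in the gene table: the 3 inducible catalytic subunits Psmb8, Psmb9 and Psmb10, their counterparts Psmb5, Psmb6 and Psmb7, and the PA28 subunits Psme1, Psme2 and Psme3. They were chosen by symbol. The rule uses 1 measured value, the mean level over the 4 libraries, only to pick among rows that share a symbol, and as each of the 9 symbols had 1 row it decided nothing. All 9 passed the expression minimum, a mean of at least 1 FPKM. The set was proposed with the falls of Psmb8 and Psmb10 already known, so the differences of these genes are given as a description, without a p-value.

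Cells of generation 4 were kept overnight without serum before treatment. The IL-22 group (2 libraries) then received recombinant rat IL-22, a STAT3-activating relative of IL-10, at 100 ng/ml for 48 h. The control group (2 libraries) received 0.1% bovine serum albumin, the solvent, and its duration is not in the labels. The series asks how IL-22 bears on Schwann cell growth and nerve regeneration. The labels do not say that the 2 libraries of a group came from separate cultures, so p-values cover only library-to-library spread, possibly technical.

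The values are FPKM, that is fragments corrected for transcript length and for library size. Relative depth was read as the most common ratio of control library 1 to each other library among values under 0.15 FPKM. It gave both IL-22 libraries 1.08 times, and control library 2 1.28 times, the depth of control library 1. That ratio held in 124 of 291 rows for IL-22 library 1 and 61 of 277 for IL-22 library 2. For control library 2 it held in 151 of 371 rows. Absolute depth is unknown. Of 10 Schwann lineage markers 6 had a mean under 1 FPKM, among them Sox10 and S100b, and Mbp was listed at 0 in all 4 libraries. The summed level of these markers was 48.1 and 50.8 FPKM with IL-22, against 21.8 and 23.7 FPKM in control, most of it from Pmp22. The tested markers moved both ways: Pmp22 rose by 1.08, Egr2, a regulator of myelin genes, rose by 2.06, and Gfap, a glial filament, was lower by 0.70 but not called without IL-22 library 1. Il22ra1, the gene of the IL-22-binding receptor chain, named here with its values known, stood at 0 in all 4 libraries. Leukocytes carry much immunoproteasome, and 10 of their marker genes summed to 6.60 and 4.04 FPKM with IL-22 and 4.47 and 4.19 FPKM in control. Aif1 and Adgre1 were listed at 0 throughout. The tested genes of this list, Cd14 and Cd68, moved opposite ways and were not called. Cd14 measured 4.61 and 2.47 FPKM with IL-22 and 2.22 and 2.16 FPKM in control (0.47). Cd68, named to complete the list, measured 0.998 and 0.775 FPKM with IL-22 and 1.56 and 1.21 FPKM in control (-0.34). The fibroblast and endothelial list summed to 402 and 407 FPKM with IL-22 and 406 and 398 FPKM in control. Of its 4 tested genes 2 were higher and 2 lower, where 27.6% of all tested rows were higher and 30.8% lower. Col1a1 (-0.55), Col1a2 (-0.23) and Pdgfra (0.33) each lost its call when some library was left out. Col1a2 moved to -0.12 without control library 1. Thy1 (0.19), the other higher gene, is named to complete that count. Most of the sum came from Thy1, at 242 and 241 FPKM with IL-22 and 201 and 222 FPKM in control. Dcn and Lum stood at 0. The part of these cell type markers in the results was not tested.

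The proteasome is a barrel of stacked rings that cuts ubiquitin-tagged proteins into peptides. Its cutting sites lie in the beta5, beta1 and beta2 subunits, encoded by Psmb5, Psmb6 and Psmb7, and interferon-gamma induces the replacements beta5i (Psmb8), beta1i (Psmb9) and beta2i (Psmb10), which are built into new cores and shift the peptides towards those that MHC class I molecules bind. PA28 is a ring that caps the core and opens it without ubiquitin or ATP: PA28alpha and PA28beta (Psme1 and Psme2) form a mixed, interferon-inducible ring in the cytoplasm, and PA28gamma (Psme3) forms a ring of its own in the nucleus.

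After IL-22 all 3 inducible catalytic subunits and all 3 PA28 subunits were lower, and of the constitutive catalytic subunits only Psmb5 passed the test. Of the 9 genes 7 were lower and 0 higher by limma (adjusted p under 0.05), where 30.8% of all tested rows were lower and 27.6% higher. These counts include Psmb8 and Psmb10, whose falls were known beforehand. Leaving them aside, 5 of 7 were lower and 0 higher. At an unadjusted limma p under 0.05, 0 of the 9 were higher. The median difference (IL-22 minus control, log2 of FPKM + 1) was -0.51 over the 9 genes and -0.02 over all 9485 tested rows. Without Psmb8 and Psmb10 it was -0.45. Every IL-22 library lay below every control library for 8 of the 9 genes, as it did for 41.7% of tested rows. Without Psmb8 and Psmb10 this held for 6 of 7. The differences ranged from -2.87 to 0.03. Because RNA was taken in bulk, fewer cells of a type and less RNA per cell cannot be told apart.

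**Figure D1:**
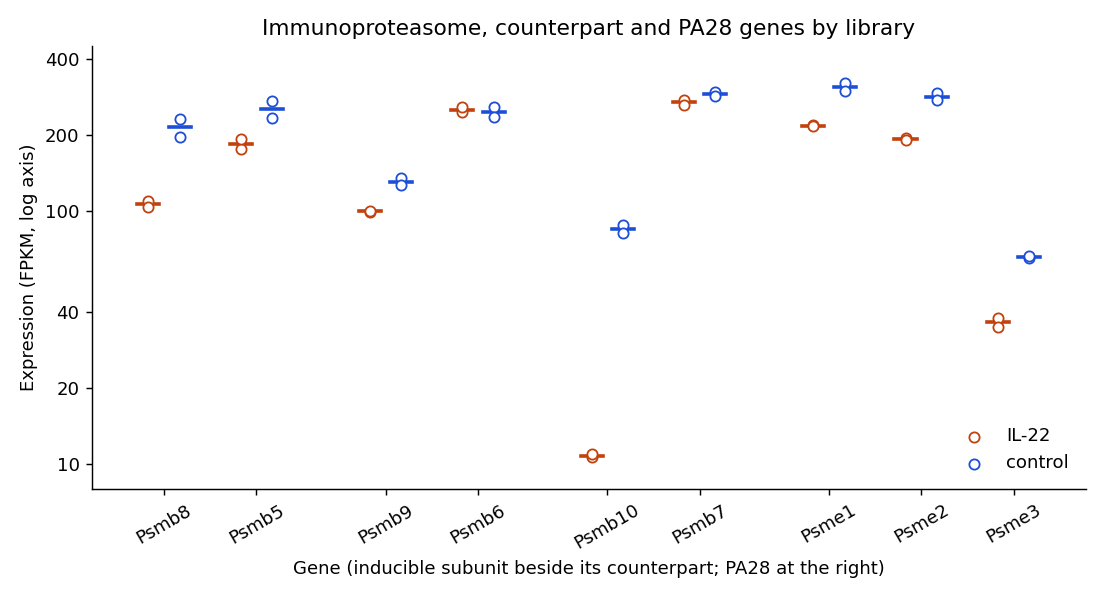
Expression of the 9 genes in FPKM on a log axis, one open point per library and a line at the mean of the 2 libraries, with IL-22 left of control for each gene. Psmb10 sits at 10.6 and 10.9 FPKM with IL-22 and at 88.1 and 82.3 FPKM in control, while the points of Psmb6 overlap.

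Psmb10, the trypsin-like site beta2i, measured 10.6 and 10.9 FPKM with IL-22, against 88.1 and 82.3 FPKM in control. Its mean was 87.4% lower, with 10.8 ± 0.189 FPKM in IL-22 cells and 85.2 ± 4.12 FPKM in control cells (SD, n = 2 each). The log2 difference of -2.87 ± 0.08 (SE) was the 5th lowest of the 9485 tested rows. In control the gene stood above Psme3, and with IL-22 it was the lowest of the 9.

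Psmb8, the chymotrypsin-like site beta5i, measured 110 and 104 FPKM with IL-22, against 232 and 197 FPKM in control. The mean was 50.0% lower and the log2 difference was -0.99 ± 0.08 (SE), the 282nd lowest. Its control libraries were further apart (SD 24.5 FPKM) than its IL-22 libraries (SD 4.12 FPKM), and the groups did not overlap. Psmb9, the beta1i site, measured 99.4 and 101 FPKM with IL-22, against 135 and 126 FPKM in control. It fell by 0.38 ± 0.06 on the log2 scale (SE, limma adjusted p = 9.03e-04), a mean 23.6% lower.

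The falls of the 3 inducible genes differed in size. Their summed level was 220 and 216 FPKM with IL-22, against 455 and 406 FPKM in control, a difference of -212 FPKM in the means. Psmb8 gave -107 FPKM of it, Psmb10 -74.4 FPKM and Psmb9 -30.9 FPKM. Psmb10 made up 4.84% and 5.06% of the inducible sum with IL-22, against 19.4% and 20.3% in control. Psmb9 made up 45.1% and 46.6% with IL-22, against 29.7% and 31.2% in control, while the share of Psmb8 overlapped between the groups, at 50.0% and 48.3% with IL-22 and 50.9% and 48.5% in control.

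**Figure D2:**
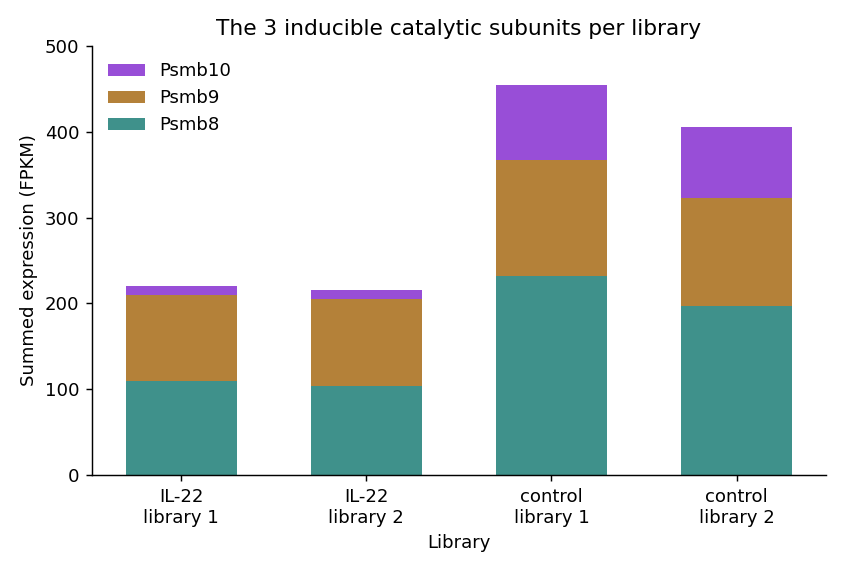
Summed FPKM of Psmb8, Psmb9 and Psmb10 in each library, stacked by gene. The bars reach 220 and 216 FPKM in the IL-22 libraries and 455 and 406 FPKM in the control libraries, and the Psmb10 part shrinks to a thin cap with IL-22.

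Among the constitutive sites, Psmb5 (beta5) measured 176 and 192 FPKM with IL-22, against 273 and 234 FPKM in control. It fell by 0.45 ± 0.08 on the log2 scale (SE, limma adjusted p = 0.0016). Psmb6 (beta1) measured 246 and 258 FPKM with IL-22 and 258 and 236 FPKM in control, values that overlapped (0.03 ± 0.07, limma adjusted p = 0.74). Psmb7 (beta2) measured 276 and 263 FPKM with IL-22 and 296 and 285 FPKM in control (-0.11 ± 0.06, limma adjusted p = 0.166). Its libraries did not overlap, but the difference did not pass the threshold.

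Set against its counterpart in the same library, each inducible subunit was lower with IL-22. The ratio of Psmb10 to Psmb7 was 0.0385 and 0.0415 with IL-22, against 0.298 and 0.289 in control. Psmb8 to Psmb5 gave 0.624 and 0.542 with IL-22, against 0.847 and 0.843 in control, a gap made smaller by the fall of Psmb5 itself. Psmb9 to Psmb6 gave 0.405 and 0.390 with IL-22, against 0.524 and 0.535 in control. The inducible genes together held 24.0% and 23.2% of the FPKM of the 6 catalytic subunits with IL-22, against 35.5% and 35.0% in control. No ratio overlapped between the groups. The ratios of Psmb8 and Psmb10 and the inducible share rest on genes whose falls were known beforehand, so they are a description. For Psmb9 to Psmb6 the exact permutation test (two-sided, 2 libraries against 2) gave p = 0.333, the smallest this design allows.

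**Figure D3:**
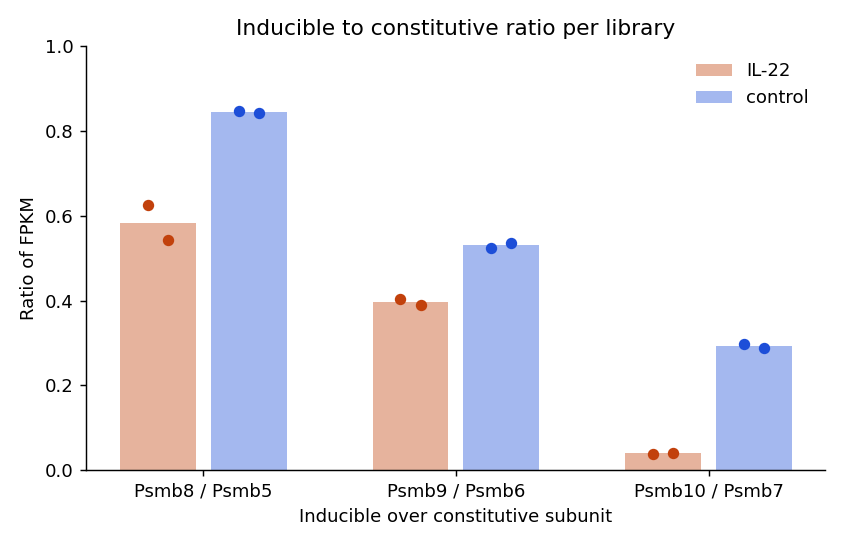
Ratio of FPKM of each inducible subunit to its constitutive counterpart, with bars at the mean of 2 libraries and a point per library, IL-22 left of control. Psmb10 to Psmb7 stands at 0.0385 and 0.0415 with IL-22 and at 0.298 and 0.289 in control, a wider relative gap than in the other pairs.

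The PA28 genes fell together. Psme1 (PA28alpha) measured 219 and 216 FPKM with IL-22, against 321 and 299 FPKM in control, and fell by 0.51 ± 0.06 on the log2 scale (SE, limma adjusted p = 1.55e-04). Psme2 (PA28beta) measured 195 and 191 FPKM with IL-22, against 294 and 274 FPKM in control, and fell by 0.55 ± 0.06 (SE, limma adjusted p = 9.64e-05). These partners of one ring stayed close in level: the ratio of Psme1 to Psme2 was 1.12 and 1.13 with IL-22 and 1.09 and 1.09 in control (exact permutation p = 0.333, the smallest possible). Psme3 (PA28gamma), lower in level than both, measured 37.8 and 34.9 FPKM with IL-22, against 65.6 and 66.5 FPKM in control. It fell by 0.85 ± 0.07 (SE, limma adjusted p = 1.67e-05), a mean 45.0% lower, and its ratio to Psme1 was 0.173 and 0.161 with IL-22, against 0.204 and 0.222 in control.

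The order of the levels changed with these falls. With IL-22 it ran Psmb7, Psmb6, Psme1, Psme2, Psmb5, Psmb8, Psmb9, Psme3 and Psmb10, and only Psme2 and Psmb5 overlapped among neighbours. In control it ran Psme1, Psmb7, Psme2, Psmb5, Psmb6, Psmb8, Psmb9, Psmb10 and Psme3, where Psmb7 overlapped Psme2 and Psmb5 overlapped Psmb6. Of the 9 genes 5 were higher in IL-22 library 1 than in IL-22 library 2, and 8 were higher in control library 1 than in control library 2, as were 49.9% and 51.3% of tested rows. The rRNA rows of the table split the groups and went opposite ways. Rn28s was listed at 0 in both IL-22 libraries, against 4015 and 2715 FPKM in control, and Rn45s likewise, against 2872 and 2103 FPKM. The row Rn5-8s held 593 and 614 FPKM with IL-22, against 27.6 and 16.5 FPKM in control, and 5 further rows of that gene were close to it in each group, while another was at 0 throughout. Whether this has a part in the differences or the spread of the 9 genes was not tested.

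The promoters of the interferon-inducible genes Psmb10, Psmb8 and Psme2 are shown. Of the 9 windows only theirs hold the full core of the interferon-stimulated response element. These 3 genes were lower with IL-22, as were Psmb9, Psme1, Psmb5 and Psme3, whose windows hold no full core. Whether the core has a part in the differences was not tested. The promoters are RefSeq sequences of the build GRCr8, from 250 bases before to 50 after the annotated start. A window was found for all 9 genes. The core was searched as GAAANNGAAA on both strands. Capitals mark it, and in Psmb8 the first capitals mark a GAS motif (TTCNNNGAA, also both strands, the site shape of STAT factors).
Psmb10 (chr19:50743243-50743542, minus strand): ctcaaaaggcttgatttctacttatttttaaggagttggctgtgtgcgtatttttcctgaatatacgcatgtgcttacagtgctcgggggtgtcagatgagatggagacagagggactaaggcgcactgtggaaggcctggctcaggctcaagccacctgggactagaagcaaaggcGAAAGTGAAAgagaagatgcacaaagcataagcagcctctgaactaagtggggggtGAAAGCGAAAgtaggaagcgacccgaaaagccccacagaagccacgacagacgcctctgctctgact
Psmb8 (chr20:4656982-4657281, minus strand): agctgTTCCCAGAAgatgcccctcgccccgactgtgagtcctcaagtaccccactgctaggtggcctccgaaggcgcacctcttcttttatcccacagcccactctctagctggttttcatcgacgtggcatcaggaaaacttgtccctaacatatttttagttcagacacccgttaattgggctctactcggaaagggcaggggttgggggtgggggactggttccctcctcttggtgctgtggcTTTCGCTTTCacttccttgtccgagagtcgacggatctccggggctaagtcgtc
Psme2 (chr15:33052702-33053001, minus strand): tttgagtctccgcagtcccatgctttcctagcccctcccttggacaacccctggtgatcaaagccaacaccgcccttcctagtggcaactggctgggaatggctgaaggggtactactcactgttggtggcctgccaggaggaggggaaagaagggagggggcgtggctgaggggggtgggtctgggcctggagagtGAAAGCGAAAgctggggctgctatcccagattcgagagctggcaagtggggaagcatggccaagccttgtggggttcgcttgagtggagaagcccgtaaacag

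Psmb10 holds 2 such cores, GAAAGTGAAA starting at -73 and GAAAGCGAAA starting at -17 from the start site. Psme2 holds GAAAGCGAAA starting at -53, and Psmb8 holds the same letters on the other strand, TTTCGCTTTC, starting at -4. Of 33469 rat promoter windows 3.92% hold at least 1 core and 0.266% hold 2 or more, and 8.87% hold a GAS motif, which among the 9 genes was found in Psmb8 alone (TTCCCAGAA). A NF-kappaB-like motif searched as GGGANNNNCC (19.3% of windows) was found in none of the 9, and the antioxidant response element searched as TGACNNNGC (12.1% of windows) in the constitutive Psmb5 and Psmb6. No match overlapped another. Tap1 lies beside Psmb9 on the opposite strand, and the windows of the 2 genes overlap by 44 bases. The Tap1 window holds 1 core (TTTCGGTTTC, starting at -121 from the Tap1 start) and 1 NF-kappaB-like motif (GGGACTTTCC, starting at -55), which lie outside the Psmb9 window. The letters are a description of these windows, and no match says only that they are not in that window. The Psme1 window ends in tttcgctt, the letters that begin the Psmb8 match, so its edge may cut a core.

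In the RefSeq gene order Psmb8 and Psmb9 flank Tap1, which encodes a chain of the transporter that carries peptides to class I molecules, and Tap2 lies on the other side of Psmb8. Tap1 fell by 0.33 ± 0.07 (limma adjusted p = 0.00244), near the difference of Psmb9. Tap2, read from the higher of its rows, was lower by 0.30, but not called when control library 1 or IL-22 library 2 was left out (over 13 alternatives the limma adjusted p lay between 0.00473 and 0.0896). RT1-DMb, an MHC class II gene on the far side of Psmb9, measured 6.14 and 6.65 FPKM with IL-22, against 2.36 and 2.06 FPKM in control, and rose by 1.21. Lcat, beside Psmb10, measured 10.3 and 8.35 FPKM with IL-22 and 8.41 and 11.9 FPKM in control and did not pass (limma adjusted p = 0.605). Ctrl, on the other side of Psmb10, measured 0.552 and 0.919 FPKM with IL-22, against 1.19 and 2.47 FPKM in control, and was lower by 0.68 (limma adjusted p = 0.0341), but not called with all expressed rows fitted or without IL-22 library 1. Becn1, beside Psme3, fell by 0.56 (limma adjusted p = 1.72e-04), and Nek6, beside Psmb7, rose by 0.35 (limma adjusted p = 0.00167). Rnf31, beside Psme2 (0.23, limma adjusted p = 0.053), and RGD1565222, beside Psmb5 (-0.09), did not pass, though Rnf31 did under 5 of 13 alternatives. Psme1 overlaps Emc9, which rose by 1.17 to 5.50 and 7.97 FPKM with IL-22, against 2.10 and 2.68 FPKM in control, and since strand was not stated their shared reads cannot be told apart.

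The other proteasome genes differed in both directions, where 30.8% of all tested rows were lower and 27.6% higher. Of 13 other core genes 11 were tested, 6 lower and 0 higher, with a median difference of -0.17 and a range from -0.66 to 0.09. Psma7, an alpha-ring subunit, fell by 0.40 (limma adjusted p = 5.49e-04). Psmb1, Psmb2, Psmb3 and Psmb4, the non-catalytic beta subunits, measured differences of 0.02, 0.09, 0.05 and 0.02 and did not pass, nor did Psma6 (0.02). Psma1 (-0.19), Psma2 (-0.17) and Psma4 (-0.22) were lower but not called in 6, 8 and 6 of 13 alternatives, and Psma4 moved to -0.12 without IL-22 library 2. Psma3 (-0.66) was at 4.74 and 3.26 FPKM with IL-22 and 8.03 and 5.73 FPKM in control, while the near-identical row Psma3l held 27.0 and 24.6 FPKM with IL-22 and 44.9 and 31.3 FPKM in control, so reads may be split between them. Psma3 was not called with all expressed rows fitted or when control library 1 was left out. Psma5 (-0.22) was not called without the trend or when any library but IL-22 library 1 was left out. The count of 6 lower core genes fell to 1 without control library 1, to 2 without control library 2, without the second IL-22 library or without the trend, and to 3 with no filter or with quantile normalization, and the count of higher core genes was 1 without control library 2.

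**Figure D4:**
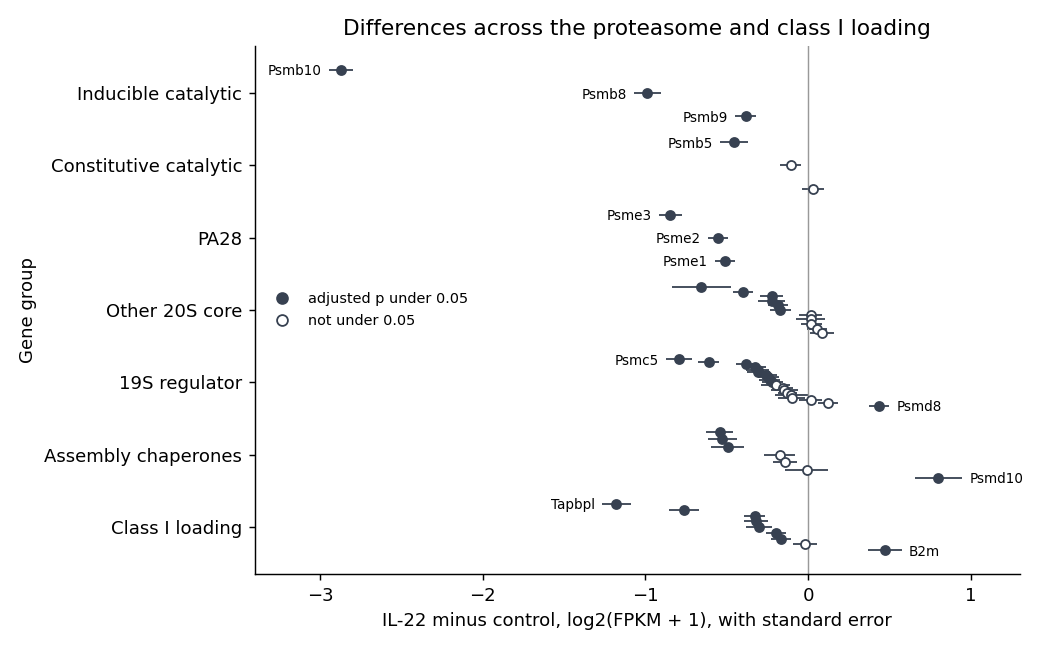
Difference of each tested gene (IL-22 minus control, log2 of FPKM + 1) with its standard error, by gene group, filled where the limma adjusted p was under 0.05. Psmb10 at -2.87 and Psmb8 at -0.99 lie below all tested genes of the other core and 19S groups, whose lowest is Psmc5 at -0.79. In the class I loading group Tapbpl, at -1.18, lies below Psmb8. The falls of Psmb8 and Psmb10 were known beforehand.

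Of the 19S regulator, the cap that recognises ubiquitin and unfolds substrates, 10 of 19 tested genes were lower and 1 higher (median -0.22), or 5 lower without IL-22 library 2. Its ATPase genes Psmc5 (-0.79) and Psmc3 (-0.61) fell most, and Psmd8, a lid subunit, rose by 0.44 (limma adjusted p = 3.68e-04). Of 7 tested assembly chaperones 3 were lower and 1 higher, with Psmd5 (-0.54) and Psmg2 (-0.53) lower and Psmd10 higher by 0.80. Over all tested rows 30.8% were lower and 27.6% higher. Without control library 2 the count of higher chaperones was 2. Psme4, which encodes the PA200 activator, measured 4.95 and 4.52 FPKM with IL-22 and 5.53 and 4.74 FPKM in control and did not pass, while Psmf1, an inhibitor of the core, fell by 0.30 (limma adjusted p = 0.00435).

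Genes that act after the proteasome on the class I route were mostly lower, where 30.8% of all tested rows were lower and 27.6% higher. Of 9 loading genes 7 were lower and 1 higher (median -0.30), or 4 lower without IL-22 library 2. Tapbpl, which encodes the peptide editor TAPBPR, fell by 1.18 to 7.88 and 7.81 FPKM with IL-22, against 19.01 and 19.07 FPKM in control. Erap1, the endoplasmic reticulum aminopeptidase, fell by 0.76 (limma adjusted p = 1.39e-04). B2m, the light chain of class I molecules, was higher by 0.47, or by 0.29 without control library 1, and was not called with all expressed rows fitted (over 13 alternatives the limma adjusted p lay between 1.27e-06 and 0.0538). Of 7 peptidases of the cytosol and related compartments that trim or destroy peptides 4 were lower and 1 higher (median -0.29), with Nln (-0.48), Blmh (-0.42) and Thop1 (-0.36) lower. The 1 higher peptidase, Npepps, named to complete that count, was not called without IL-22 library 1 or without IL-22 library 2.

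A further list joined genes of the interferon-gamma pathway and inducers of immunoproteasome genes. Of its 13 tested genes 5 were higher and 4 lower (median -0.06), where 27.6% of all tested rows were higher and 30.8% lower. Nlrc5, also on that list, had no row. Irf1, the transcription factor that binds the interferon-stimulated element in these promoters in mouse and human cells, measured 44.5 and 41.5 FPKM with IL-22, against 71.8 and 70.0 FPKM in control, and fell by 0.71 ± 0.07 (SE, limma adjusted p = 3.93e-05). Ifngr2, a chain of the interferon-gamma receptor, rose by 0.99 (limma adjusted p = 1.96e-05), and Nfkb1 rose by 0.66. Of 4 tested genes of the response that restores proteasome genes when proteolysis is blocked 1 was higher and 2 lower. Nfe2l2 rose by 0.69 and Ddi2 fell by 0.38. Vcp was lower by 0.26 but not called when control library 1 or IL-22 library 2 was left out. Nfe2l1, also listed for this response, had no row.

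The tested rows outside the set with the most similar profiles over the 4 libraries were found by the Euclidean distance of centred log2 values, as a description. Nearest to Psmb10 were Vps37c (distance 0.03), listed at 0 in both IL-22 libraries and at 6.62 and 6.12 FPKM in control, Gpx1 (0.14), at 26.3 and 29.1 FPKM with IL-22 and 197 and 200 FPKM in control, and Id2 (0.42). Over the alternatives, which include other pseudocounts, the difference of Vps37c ran from -6.01 to -1.18 and that of Psmb10 from -2.97 to -2.51. The closeness of Vps37c thus holds for the pseudocount used. Nearest to Psmb8 were Lsm6, Cenpl and Usp1, at distances of 0.01, 0.02 and 0.04. Nearest to Psmb9 were Ube2j2, Atp5a1 and Crk, each at a distance of 0.02. With 4 libraries such likeness mostly restates the size of the difference between the groups.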

How the data were processed

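The labels' protocols describe poly(A) libraries run on an Illumina HiSeq. The authors deposited FPKM values for each gene, with a column for each of the 4 libraries and no pooling. The submitters' processing notes name rn5 as the build, and TopHat2 and Cuffdiff as tools. Versions, annotation, filters and scaling were not stated. FPKM cannot be put through a count test and give no counting intervals.

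Of 17778 rows 9485 had a mean of at least 1 FPKM. These were fitted together as log2 of FPKM + 1, IL-22 against control without covariates, using limma 3.58.1 (R 4.3.3) with trended eBayes, and p-values were adjusted by Benjamini-Hochberg over all 9485 rows with a threshold of 0.05. The log2 difference understates changes of low genes. The fit was tested on simulated data. Groups come from the sample titles, where one control is misspelt. The lncRNA table was not used. Ratios used FPKM as deposited. Symbols of the lists without a row were looked up as RefSeq synonyms. The rule for names took all 9 members, the core subunits, the neighbouring genes, the 3 most similar profiles per inducible subunit, Irf1, Tap1, Tap2, B2m and, per list, the 3 called genes with the largest difference. Some listed genes are counted and not reported by name here, and neighbours below the minimum or without a row are not named. Members, lists and motifs were chosen with earlier results of these data known. Figures used Python 3.11.15 and matplotlib 3.10.9.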

Additional observations from a re-analysis of the deposited data

How the results depend on the processing

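The calls of the 9 genes did not change under any of 13 alternatives (pseudocounts of 0.1 and 5 FPKM, no filter or a mean of at least 5 FPKM, size factors by median of ratios, quantile normalization, limma fitted robustly or with no trend, the replicate block, each library left out): 7 lower and 0 higher each time. With a library left out its group has 1 library, which is assumed to vary like the other group, so these fits are a weak check. The 7 include Psmb8 and Psmb10, whose falls were known beforehand. The difference of Psmb10 ran from -2.97 to -2.51 and that of Psmb5, the called gene with the highest adjusted p, from -0.57 to -0.34 (limma adjusted p up to 0.0257). Psmb6, not called, ranged from -0.0339 to 0.0898 with libraries left out, and Lcat, also not called, from -0.325 to 0.127. Of the other core genes not called, with libraries left out Psma6 ranged from -0.0536 to 0.0861, Psmb1 from -0.0242 to 0.0631, Psmb2 from -0.0071 to 0.182 and Psmb4 from -0.125 to 0.158, and Psmb4 gave -0.0139 with quantile normalization. All tested genes counted from 2101 to 2755 higher and from 2377 to 3070 lower, the ends being fits with a library left out and the replicate block. The replicate block gave 2755 higher and 3070 lower, against 2619 and 2918 without it. The numbers do not pair the libraries by any label, and same-numbered libraries deviated with a correlation of -0.00197. As ratios of quantile-normalized FPKM, the log2 difference moved to -0.36 for Psmb9 to Psmb6 (from -0.42), to -2.81 for Psmb10 to Psmb7 (from -2.87) and to 0.0303 for Psme1 to Psme2 (from 0.0441), and the inducible share to -11.1 percentage points (from -11.6). As a ratio of FPKM + 1, Psmb10 to Psmb7 gave -2.76. With libraries left out, the log2 difference ran from -0.64 to -0.44 for Psmb8 to Psmb5. Of 208 list counts under alternatives 15 moved by over 1.5 times. With 2 libraries a group, absolute depth and culture replication limit what small differences such as that of Psmb7 can show.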
